A study of Mus musculus with 11 samples.

Results

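The regions described here are 495 accessible sites, out of 45508 listed ATAC-seq peaks, that were less open in naive CD4 T cells with a high T cell receptor reporter than in those with a low one. They were chosen on the measured values: the mean of population A, the reporter-low cells, was at least 5 rppm (reads scaled to a common total, as deposited), and log2((D + 1)/(A + 1)) of the population means was at most -0.8, where D is the reporter-high population. That threshold is a 1.74-fold lower value of rppm + 1 in D. Of the 45508 peaks, 34178 reached the level in A, and 608 met the ratio with or without it. The 495 peaks are called closing peaks below, as a name for this rule only.

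Cells came from spleen and lymph nodes of 3 untreated mice on a C57/BL6 background. All of them carried 2 alleles in common, the transgene Tg(Nr4a1-EGFP)GY139Gsat, in which Nr4a1 (Nur77) sequences drive green fluorescent protein, and Foxp3tm1Flv, a red reporter of Foxp3. CD4 positive cells without the red Foxp3 signal and with little CD44 were split into D (reporter high, Ly6C negative, n = 3), C (reporter intermediate, Ly6C negative, n = 3), B (reporter intermediate, Ly6C positive, n = 3) and A (reporter low, Ly6C positive, n = 2). Replicate numbers are mouse numbers, and mouse 2 has no A library. D and A differ in the reporter and in Ly6C at once, so the 2 markers cannot be told apart in that comparison, while C and B were both taken at intermediate reporter and differ in Ly6C. The reporter is a transgene and stands in for Nr4a1 transcription. Age and sex were not used here.

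ATAC-seq tags DNA that the transposase Tn5 can reach, and distal sites of this kind are often enhancers. Naive T cells receive weak signals from self peptides on MHC molecules without being activated, and Nur77 is an immediate early gene whose product tracks such signals. Ly6C, the surface protein encoded by Ly6c1 and its near-identical neighbour Ly6c2, is known to be lower on naive CD4 T cells that receive stronger self signals. In bulk samples, fewer cells with an open site and a less open site in each cell cannot be told apart.

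Few closing peaks lie at start sites. Promoter windows from RefSeq (GRCm38.p6, the assembly of mm10; 250 bases before to 50 after a start, 300 in all) overlapped 13 closing peaks in 17 windows, some of which share bases. The 4 windows shown have their start inside a closing peak and belong to genes taken up below, so most of each is DNA that was measured as less open in D: all 300 bases at Slc22a4 and Tmem37, 244 at Ly6c1 and 223 at Ptger3. Ly6c1 encodes the sorted marker, Slc22a4 a carnitine and ergothioneine transporter, Tmem37 a membrane protein related to calcium channel subunits, and Ptger3 a prostaglandin E receptor. Capitals mark letters found on either strand for an E-box (CAGCTG in the Ly6c1 window, CAGGTG in the Ptger3 window), NFAT (TGGAAA), ETS (CCGGAA), KLF (GGGNGTGG), AP-1 (TGANTCA) and CTCF (AGNGGGCGC).
Ly6c1, chr15:75048788-75049087, minus strand: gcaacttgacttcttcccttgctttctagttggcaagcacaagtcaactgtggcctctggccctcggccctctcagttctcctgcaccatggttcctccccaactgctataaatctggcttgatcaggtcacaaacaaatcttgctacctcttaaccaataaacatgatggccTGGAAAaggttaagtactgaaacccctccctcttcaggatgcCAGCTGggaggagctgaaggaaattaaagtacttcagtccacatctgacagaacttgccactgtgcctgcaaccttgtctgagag
Slc22a4, chr11:54028055-54028354, minus strand: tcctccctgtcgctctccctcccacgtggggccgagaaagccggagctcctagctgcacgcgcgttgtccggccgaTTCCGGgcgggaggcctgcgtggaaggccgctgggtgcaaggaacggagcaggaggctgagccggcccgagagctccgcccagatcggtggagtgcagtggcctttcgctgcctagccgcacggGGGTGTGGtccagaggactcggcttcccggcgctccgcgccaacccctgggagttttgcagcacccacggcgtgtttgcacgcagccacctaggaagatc
Tmem37, chr1:120073731-120074030, minus strand: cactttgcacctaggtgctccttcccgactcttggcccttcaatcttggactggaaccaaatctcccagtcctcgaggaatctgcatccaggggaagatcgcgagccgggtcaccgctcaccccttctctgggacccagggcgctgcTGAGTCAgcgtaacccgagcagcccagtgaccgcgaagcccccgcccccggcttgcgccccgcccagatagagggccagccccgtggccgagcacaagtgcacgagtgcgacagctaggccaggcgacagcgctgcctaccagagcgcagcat
Ptger3, chr3:157566626-157566925, plus strand: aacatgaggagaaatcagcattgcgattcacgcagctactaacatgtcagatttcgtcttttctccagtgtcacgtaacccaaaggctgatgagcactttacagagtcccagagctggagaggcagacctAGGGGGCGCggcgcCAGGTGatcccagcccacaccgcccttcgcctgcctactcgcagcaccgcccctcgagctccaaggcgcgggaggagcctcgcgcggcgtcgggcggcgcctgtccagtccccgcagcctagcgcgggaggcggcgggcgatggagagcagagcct

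The Ly6c1 window holds CAGCTG and TGGAAA once each. CAGCTG is in 16.3% and TGGAAA in 21.4% of 32817 promoter windows outside chromosome 18, and CAGGTG, in the Ptger3 window, is in 20.2%. The ETS word of Slc22a4 is in 14.9% of all windows and its KLF word in 17.6%. The AP-1 word of Tmem37 is in 7.81%, and the CTCF word of Ptger3 in 2.87%. Over the 17 windows, CAGGTG was found in 7 and CAGCTG in 4. These matches describe letters in the windows and say nothing of which factor binds there.

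At the Ly6c1 start site (chr15:75048670-75049031) accessibility was 5.78, 2.62 and 3.61 rppm in D, 4.71, 4.73 and 5.08 rppm in C, 6.13, 6.07 and 7.66 rppm in B, and 8.05 and 7.95 rppm in A. Every C library lay below every B library there, while the rule itself puts D below A. At the Slc22a4 start (chr11:54027887-54029032) it was 3.85, 3.35 and 3.77 rppm in D, 5.69, 7.10 and 5.65 rppm in C, 5.57, 7.67 and 7.06 rppm in B, and 7.83 and 8.56 rppm in A, with C and B overlapping. At Tmem37 (chr1:120073087-120074293) the D libraries held 1.93, 3.35 and 4.97 rppm, against 8.63, 5.86 and 6.41 rppm in C, 7.46, 8.01 and 6.86 rppm in B, and 7.18 and 8.05 rppm in A. There, D alone lay apart. At Ptger3 (chr3:157566703-157567610) the values were 6.55, 5.67 and 6.13 rppm in D, 7.65, 6.27 and 6.73 rppm in C, 6.79, 8.59 and 7.90 rppm in B, and 11.7 and 12.3 rppm in A, and it was A that lay apart.

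Most closing peaks were modest sites in A. Their mean in A was 5 to 10 rppm at 251 (50.7%), 10 to 20 rppm at 171 (34.5%) and at least 20 rppm at 73 (14.7%). The median over the closing peaks of the population mean was 4.51 rppm in D, 7.25 in C, 8.88 in B and 9.92 in A, beside 9.98, 9.96, 9.94 and 9.65 rppm in the same order over all peaks. By library, the median was 3.85, 4.22 and 4.94 rppm in D, 7.46, 6.89 and 7.63 rppm in C, 9.02, 8.70 and 8.66 rppm in B, and 10.3 and 9.66 rppm in A. These medians did not overlap between any 2 populations. The 33683 other peaks that reached 5 rppm in A had medians of 14.6 to 15.8 rppm in every library. D and A were used for the choice, so their distance is a description.

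**Figure D1:**
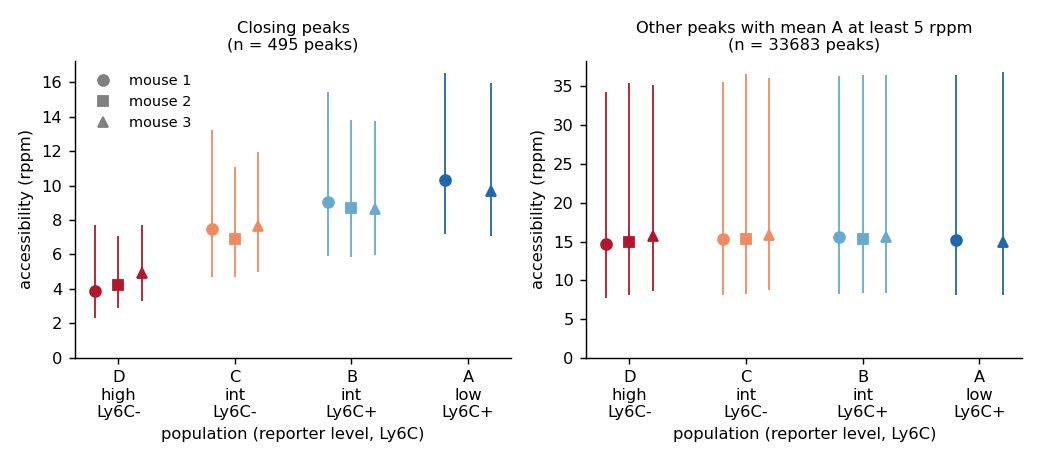
Accessibility (rppm) per library over the 495 closing peaks (left) and the 33683 others that reached 5 rppm in A (right), by population; points are medians, bars run between the quartiles, and symbols are mice. The medians of the closing peaks lie at 3.85 to 4.94 rppm in D, 6.89 to 7.63 in C, 8.66 to 9.02 in B and 9.66 to 10.3 in A, and those of the other peaks at 14.6 to 15.8 rppm; the 2 panels have their own vertical scales.

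The ratio of D to A, as log2((D + 1)/(A + 1)), had a median of -0.96 and ran from -2.02 to -0.80. It was at least 2-fold lower at 206 closing peaks and -1.5 or less at 23. The 3 libraries of D lay below both of A at all 495, as they did at 18% of all peaks, and limma called 472 of them lower, beside 3.74% of all peaks. Nothing is read from either share, since the rule used these libraries. In mouse 1 the median within-mouse difference was -1.15 and in mouse 3 it was -0.86 on the log2 scale, beside -0.07 and 0.00 over all peaks. The D library of mouse 1 was the shallowest, with fewer than 10 reads at 214 closing peaks. Just inside the threshold were peaks of Btg1, Naa30 and Wwox, at -0.800293, -0.800885 and -0.801206. Just outside were peaks of Hoxd9, Skor1 and Olfr524, at -0.79995, -0.7995 and -0.798721.

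The fall between A and D was spread unevenly over the 3 steps. On log2 of the population means plus 1, the median step was -0.58 for D minus C, -0.25 for C minus B and -0.17 for B minus A, beside -0.03, 0.00 and 0.01 over all peaks. The deepest step was D minus C at 382 closing peaks (77.2%), C minus B at 81 (16.4%) and B minus A at 32 (6.46%), beside 41.3%, 32.5% and 26.2% of all peaks, of which many are not lower in D. The 4 means were in the order D, C, B, A from low to high at 396 closing peaks (80.0%). The share was 13.0% of all peaks and 15.5% of those with at least 5 rppm in A. The rule itself puts D below A at closing peaks. Where D minus C was deepest, the median means were 4.73 rppm in D, 8.28 in C, 9.58 in B and 10.2 in A, so C stood close to B. Where C minus B was deepest, they were 4.13, 5.22, 7.60 and 9.16 rppm in the same order, and C stood nearer to D. Where B minus A was deepest, they were 3.58, 4.29, 5.69 and 8.52 rppm. The steps are not on equal terms, since D minus C and B minus A each use a population that the rule used and C minus B does not. These classes were cut from the values and are not tested.

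Closing peaks of Bach2 and Il7r show the first pattern. Bach2 encodes a transcriptional repressor that holds naive T cells back from effector differentiation. Its closing peak at chr4:32290833-32292063, 126 kb from the start site, was the most open of all closing peaks in A, at 47.4, 46.8 and 44.1 rppm in D, 78.5, 75.8 and 67.2 rppm in C, 77.7, 84.1 and 75.6 rppm in B, and 83.9 and 79.7 rppm in A. C and B overlapped there, and D stood apart. The gene as a whole was mixed: of its 54 peaks 2 were closing peaks, and 20 had a higher mean in D than in A, the highest at 1.97. Il7r encodes the interleukin 7 receptor alpha chain, which naive cells need to survive. Its peak at chr15:9527073-9527747, in its first intron, held 3.47, 6.98 and 6.62 rppm in D, 10.0, 14.1 and 12.3 rppm in C, 11.2, 13.6 and 11.9 rppm in B, and 13.1 and 12.4 rppm in A, again with D alone apart. A second peak assigned to Il7r, at chr15:9580047-9581879 within an intron of Spef2, held 27.0, 35.3 and 34.2 rppm in D, 42.2, 54.9 and 54.9 rppm in C, 46.4, 66.6 and 53.0 rppm in B, and 59.4 and 57.3 rppm in A.

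Lipa and Oxsm show the second pattern. Lipa encodes lysosomal acid lipase. Its peak at chr19:34510603-34511429, over exon 4 of 10 of the transcript in the annotation, held 8.86, 10.2 and 11.1 rppm in D, 11.0, 12.0 and 12.2 rppm in C, 20.7, 20.8 and 19.3 rppm in B, and 24.8 and 22.0 rppm in A. Oxsm encodes a mitochondrial fatty acid synthase enzyme, and the peak at chr14:16164396-16165191, 78.5 kb from its start, held 6.55, 8.29 and 7.16 rppm in D, 7.07, 7.51 and 8.09 rppm in C, 12.8, 14.0 and 14.2 rppm in B, and 15.0 and 14.0 rppm in A. At both peaks every C library lay below every B library, and D and C overlapped. The rule itself puts D below A. Il2ra encodes the interleukin 2 receptor alpha chain. C stood close to D also at its peak at chr2:11634975-11636654, with 15.4, 18.5 and 19.6 rppm in D, 20.4, 21.1 and 19.5 rppm in C, 24.2, 27.4 and 29.7 rppm in B, and 37.4 and 36.7 rppm in A, but there the step from B to A was the deepest.

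**Figure D2:**
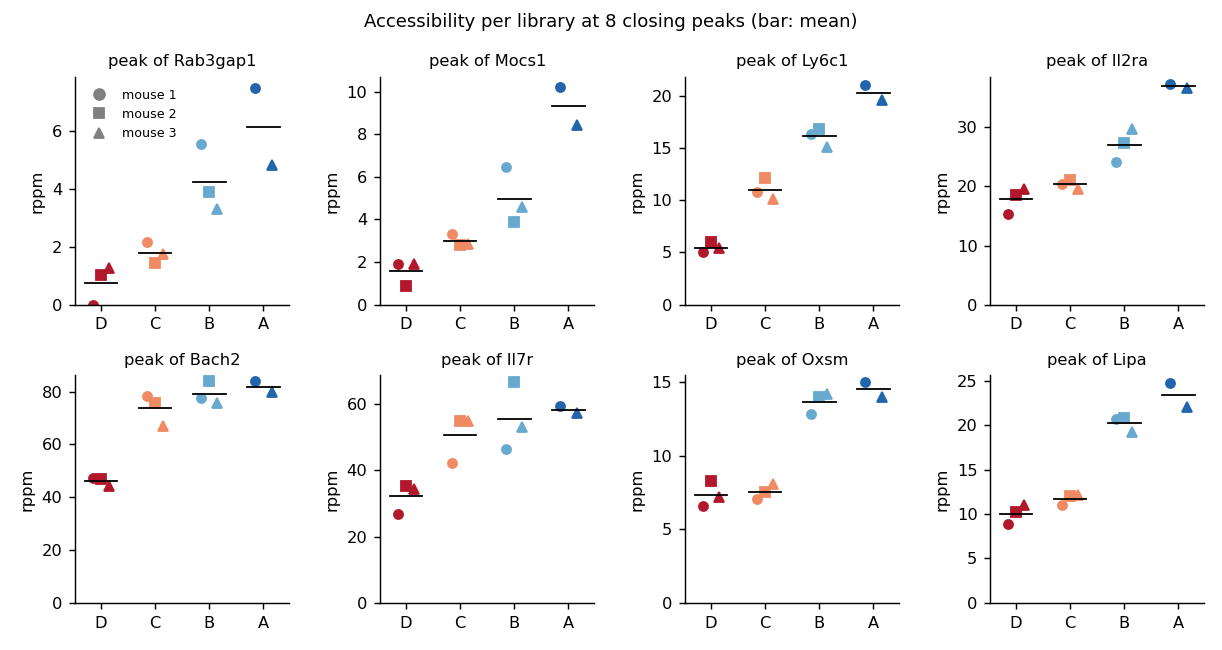
Accessibility per library (rppm, each panel with its own scale) at closing peaks of 8 genes, by population D, C, B and A; symbols are mice and bars are means. C stands close to B at Bach2 (means 73.8 rppm in C and 79.1 rppm in B) and Il7r (50.7 rppm in C and 55.3 rppm in B), and close to D at Oxsm (means 7.33 rppm in D and 7.55 rppm in C) and Lipa (10.0 rppm in D and 11.7 rppm in C).

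C against B asks whether closing peaks also differed with Ly6C among cells sorted as reporter intermediate. Whether the reporter was equal in C and B within that gate is not shown here. Neither mean uses a library that chose the peaks, and D and A enter limma only through the estimate of spread. The accessibility of closing peaks was lower in C as a body. Their median difference was -0.25 on log2(rppm + 1) (quartiles -0.39 and -0.12), beside 0.00 over all peaks. The mean of C was below that of B at 456 of 495 (92.1%), beside 51.5% of all peaks. The median was -0.24, -0.30 and -0.22 within mouse 1, 2 and 3, beside -0.03, 0.00 and 0.02 over all peaks, so all 3 mice had the same direction and the 3 medians had an SD of 0.0421. C lay below B in all 3 mice at 327 closing peaks (66.1%), beside 15.5% of all peaks, and above B in all 3 at 9 (1.82%), beside 16.5%. All C libraries lay below all B libraries at 185 closing peaks (37.4%), beside 3.87% of all peaks. Peaks of 1 gene or locus are not independent, and no p-value is given for the set.

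Single closing peaks seldom passed a test of C against B. In limma on log2(rppm + 1), with Benjamini-Hochberg adjustment over 45508 peaks, 0 closing peaks were called lower and 0 higher, beside 0% of all peaks called lower and 1 peak of the whole table called higher. At an unadjusted p under 0.05, 143 closing peaks (28.9%) were lower, beside 1.23% of all peaks, and 0 were higher, beside 2.77%. The mouse was also used as a block, since C and B libraries of 1 number come from the same animal. Limma then called 11 closing peaks lower and 0 higher. In the whole table it called 17 peaks lower (0.0374% of all peaks) and 71 higher. On whole reads recovered from the values, edgeR called 8 closing peaks lower, of 9 called lower in the whole table (0.0198% of all peaks). DESeq2 called 9, of 11 in the whole table (0.0242%). Neither called a closing peak higher, while in the whole table edgeR called 58 peaks higher and DESeq2 75. The block, edgeR and DESeq2 shared 4 of these peaks: those of Lipa, Oxsm, Crtc3 and Fanci.

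**Figure D3:**
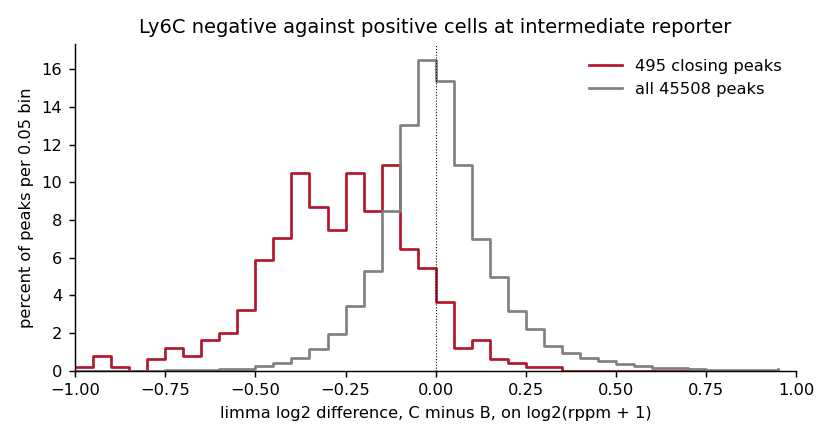
Distribution of the limma difference C minus B on log2(rppm + 1), as percent of peaks per bin of 0.05, for the 495 closing peaks (red) and all 45508 peaks (grey); values outside the axis are counted in the end bins. The closing peaks are shifted to the left, with a median of -0.25 and quartiles of -0.39 and -0.12, and all peaks centre on 0.00.

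The peaks called under the block were named after their values were seen. At Lipa the difference was -0.74 with an SE of 0.11 (limma with mouse block, adjusted p = 0.0151; without the block 0.0839; edgeR 0.0153; DESeq2 0.00127). At Oxsm it was -0.78 (block 0.0156; without 0.0969; edgeR 0.0162; DESeq2 0.0026). The Crtc3 peak (chr7:80718322-80719239) lies in an intron of Iqgap1, a scaffold of the actin cytoskeleton, while Crtc3 encodes a CREB coactivator. It held 6.16, 5.38 and 6.38 rppm in D, 8.44, 8.23 and 9.14 rppm in C, 14.5, 15.0 and 12.8 rppm in B, and 17.3 and 17.5 rppm in A, and C minus B was -0.65 (limma with mouse block, adjusted p = 0.0351; without 0.162; edgeR 0.0444; DESeq2 0.0363). The Fanci peak (chr7:79401340-79402185), in an intron of that DNA repair gene, held 10.4, 13.1 and 12.2 rppm in D, 17.1, 17.1 and 16.1 rppm in C, 29.6, 23.1 and 25.9 rppm in B, and 31.9 and 27.2 rppm in A. Its C minus B was -0.61 (limma with mouse block, adjusted p = 0.038; without 0.202; edgeR 0.0473; DESeq2 0.0166). The other 7 called with the block were peaks of Zfp507, Hlcs, Sall3, Wwox, Trps1, Mir8104 and Gm12216, at -0.96 to -0.50. Limma without the block and edgeR called none of the 7, and DESeq2 called those of Hlcs, Mir8104 and Gm12216. Neither edgeR nor DESeq2 had a term for the mouse.

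Slc25a17, Cyb5b, Rab11fip2 and Mir467h had closing peaks called by edgeR and not by limma with the block. Slc25a17 encodes a peroxisomal carrier, Cyb5b an outer mitochondrial cytochrome, and Rab11fip2 an effector of recycling endosomes. For these 3 the edgeR differences were -0.83, -0.84 and -1.06, with adjusted p of 0.0444, 0.0444 and 0.0465. A single closing peak (0.202%) had every C library above every B library, beside 5.73% of all peaks. It lies in an intron of Plcg1, the phospholipase that the T cell receptor activates (chr2:160747955-160748342), and held 3.08, 3.20 and 3.15 rppm in D, 5.30, 6.17 and 6.41 rppm in C, 4.90, 4.92 and 5.27 rppm in B, and 8.70 and 5.64 rppm in A.

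The size of the C against B difference went with how far D lay below A. The median was -0.34 at the 206 closing peaks with at least a 2-fold lower value in D, where C lay below B in all 3 mice at 76.2%. It was -0.22 at the other 289, with 58.8%. It varied less with the level in A, at -0.27, -0.23 and -0.23 for means of 5 to 10, 10 to 20 and at least 20 rppm. The other 2862 peaks of the genes with a closing peak had a median C minus B of -0.04 and a median D over A of -0.13. The 42151 peaks of genes with none had 0.00 and -0.02. These are descriptions over peaks that share libraries.

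The 10 deepest ratios lie near genes with varied roles, at sites with means in A of 5.73 to 40.6 rppm. The lowest was at chr1:127954030-127954604, assigned to Rab3gap1, a subunit of the complex that switches off the vesicle GTPase Rab3, and lying in the 3' UTR of Zranb3, a DNA repair translocase. It held 0.00, 1.02 and 1.275 rppm in D, 2.16, 1.44 and 1.76 rppm in C, 5.57, 3.89 and 3.31 rppm in B, and 7.505 and 4.83 rppm in A. The 3 populations D, C and B did not overlap, and A overlapped B. The value of 0 in D of mouse 1 is 0 reads in the shallowest library, where a count of 0 allows up to 1.16 rppm (3 reads, counting error only). A pair of further closing peaks of this gene, both in an intron of Zranb3, had ratios of -1.39 and -1.35, and these were the only 3 peaks listed in that 28.8 kb stretch.

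Mocs1, an enzyme of molybdenum cofactor synthesis, had an intergenic closing peak 22.2 kb from its start (chr17:49405832-49406508). It held 1.925, 0.873 and 1.93 rppm in D, 3.34, 2.78 and 2.84 rppm in C, 6.46, 3.89 and 4.59 rppm in B, and 10.2 and 8.46 rppm in A, with no overlap between any 2 neighbouring populations. The ratio was -2.01. Neto2, an auxiliary subunit of kainate receptors, followed at -1.98 (chr8:85623239-85623573), with means of 0.703 rppm in D, 2.32 in C, 3.82 in B and 5.73 in A. Myo6, a motor that moves toward the minus ends of actin filaments, had -1.73, with means of 2.27, 4.51, 5.96 and 9.83 rppm in D, C, B and A. Slc9a9, an endosomal sodium and proton exchanger, had -1.71, with 1.36, 2.77, 4.05 and 6.75 rppm in the same order. Mir467h was at -1.78, Mir5127 at -1.87 and Gramd3 at -1.82, with means in D of 4.75, 10.4 and 4.69 rppm and in A of 18.8, 40.6 and 19.1 rppm. The strongest of these sites, at Mir5127, lies 129 kb from that microRNA gene.

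Ly6 genes held the largest share of closing peaks among the 10 lists of genes looked up. The lists were chosen with earlier results of these data known, and no list was tested as a set. Closing peaks made up 6 of 43 peaks of the Ly6 cluster (14.0%), against 1.09% of all peaks, and the median C minus B of the 43, on population means, was -0.12 beside 0.00 over all peaks. The deepest was at chr15:75033381-75034218, 14.9 kb from Ly6c1, with 5.01, 5.96 and 5.40 rppm in D, 10.8, 12.1 and 10.1 rppm in C, 16.4, 16.8 and 15.1 rppm in B, and 21.0 and 19.6 rppm in A. No libraries of different populations overlapped, and D over A was -1.72. Its C minus B was -0.51 with an SE of 0.12, which limma did not call (adjusted p = 0.325). Ly6a, which encodes Sca-1, had 2 closing peaks. The one at its start site (chr15:74997772-74998137) held 3.47, 2.62 and 4.18 rppm in D, 4.51, 5.04 and 6.13 rppm in C, 6.46, 8.81 and 8.14 rppm in B, and 8.59 and 6.85 rppm in A. A pair of peaks near Ly6e, a regulator of viral entry, had ratios of -0.94 and -0.84.

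The 6 closing peaks of the Ly6 cluster lay within 123 kb (chr15:74925921-75049031), a stretch with 23 listed peaks, of which 20 had a lower mean in D than in A. In limma, 12 of the 43 Ly6 peaks were called lower in D than A and 0 higher, beside 3.74% of all peaks called lower and 8.7% called higher. The 43 include the 6 closing peaks, and the rule used D and A, so these counts are a description. All 7 peaks of Ly6c1 had a lower mean in D. Ly6C was itself a sorting marker, so a difference here goes with the gates. Ly6c1 and Ly6c2 are near-identical, and how reads that match more than a single Ly6 gene were counted is not given in the sources used here.

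Cytokine receptors held 7 closing peaks of 233 (3.00%), at Il7r and Il2ra with 2 each and at Il6st, Il1rl1 and Tgfbr3. Il6st encodes gp130, the shared chain of interleukin 6 family receptors, Il1rl1 the interleukin 33 receptor and Tgfbr3 a coreceptor of TGF-beta. The second Il2ra peak (chr2:11636993-11637610) held 5.78, 7.27 and 8.44 rppm in D, 11.6, 9.56 and 9.34 rppm in C, 14.8, 12.0 and 13.4 rppm in B, and 16.8 and 14.6 rppm in A, with D, C and B apart from each other. The Il2ra peaks lie 6.98 and 5.49 kb from the start, within a stretch of 2.635 kb in which no other peak is listed. The gene as a whole was mixed: of its 10 peaks 5 had a lower and 5 a higher mean in D than in A, the highest at 1.04. Il7r was less mixed, with 17 of 19 lower. Over the list of 233, limma called 21 peaks lower and 25 higher in D than A, beside 3.74% and 8.7% of all peaks. The closing peaks among them were chosen on D and A, so these counts are a description.

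Genes of T cell receptor signalling and T cell identity held 10 closing peaks of 575 (1.74%). Prkcq, the kinase PKC-theta that links the receptor to NF-kB, had 2. The one in its first intron (chr2:11205687-11206199) held 13.1, 13.5 and 13.5 rppm in D, 25.9, 24.4 and 20.7 rppm in C, 25.7, 29.6 and 26.5 rppm in B, and 28.3 and 29.3 rppm in A, so D stood apart and C overlapped B. Runx1, a factor of T cell development, had 2 as well, and the deeper, in an intron (chr16:92640922-92641550), held 19.3, 16.9 and 17.0 rppm in D, 37.5, 31.9 and 25.9 rppm in C, 38.4, 34.2 and 31.3 rppm in B, and 43.4 and 36.3 rppm in A. Txk, a Tec family kinase, had 2, of which one lies in an intron of its neighbour Tec. Themis, a regulator of receptor signalling in thymocytes, Ptprc (CD45), Runx3 and Plcg1 had 1 each. Here too most genes also held peaks of the other direction: 16 of 38 peaks of Prkcq, 25 of 34 of Runx1 and 8 of 16 of Txk had a higher mean in D than in A. Themis had 15 of 16 lower.

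Genes that the receptor induces held no closing peak among 222, a list in which limma called 5 peaks lower and 38 higher in D than A, beside 3.74% and 8.7% of all peaks. Negative regulators of activation held 2 of 305 (0.656%), at Socs3 and at Zc3h12a, which encodes the RNase Regnase-1, with 7 called lower and 80 higher, against the same shares of all peaks. The rule used D and A, so the calls in both lists are a description. The Zc3h12a peak (chr4:125138220-125138868) held 1.54, 2.18 and 3.53 rppm in D, 7.07, 5.86 and 6.02 rppm in C, 7.68, 9.04 and 6.54 rppm in B, and 9.03 and 7.05 rppm in A. Genes of naive homing and quiescence held 4 of 446 (0.897%), near Bach2, Btg1 and Als2cl, beside 1.09% of all peaks. Jak, Stat and Socs genes held 2 of 116, at Socs3 and Stat5a, the second within an intron of Stat3. The type I interferon list held 1 of 96, assigned to Ifit3 and within Ifit2, and the trafficking list 1 of 157, near Adgre5 (CD97).

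T helper 1 and cytotoxic genes held 3 closing peaks of 74 (4.05%), near Klrk1 (NKG2D), Klrd1 (CD94) and Prf1 (perforin), and these are also markers of CD8 T and NK cells. The Klrk1 peak (chr6:129608188-129609233) held 9.24, 5.38 and 6.65 rppm in D, 15.5, 10.8 and 10.9 rppm in C, 18.2, 12.8 and 13.4 rppm in B, and 19.5 and 11.4 rppm in A. D lay below the other populations, and mouse 1 had the highest value in each population. CD8 T and NK markers together held 4 of 53 (7.55%), with Runx3. The summed accessibility of those 53 peaks was 805 to 879 rppm in D, 836 to 889 in C, 870 to 902 in B and 868 to 883 in A, and 11 of 15 genes had a peak, with none listed for Ncr1, Nkg7, Klra1 or Klra7. The part of such cells in the closing peaks was not tested.

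Myeloid and dendritic markers held 2 closing peaks of 44 (4.55%), near Flt3 and Mpeg1, the second within an intron of Dtx4. Their summed accessibility was 359 to 441 rppm in D, 414 to 464 in C, 452 to 459 in B and 440 to 468 in A; 15 of 20 genes had a peak, and none was listed for Lyz2, Csf1r, Csf3r, Siglech or Tlr4. The part of such cells was not tested. B cell markers held 0 of 33, with 406 to 469 rppm in D, 369 to 431 in C, 363 to 406 in B and 392 to 399 in A, and no peak was listed for Ms4a1 or Pax5. Regulatory T cell markers held 2 of 89, both at Il2ra, with 1318 to 1378 rppm in D, 1105 to 1180 in C, 1086 to 1134 in B and 1044 to 1064 in A. All 15 naive CD4 T cell genes had peaks, with 3457 to 3627 rppm in D, 3589 to 3796 in C, 3687 to 3824 in B and 3599 to 3703 in A, and 2 of their 199 peaks were closing peaks, both of Il7r.

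Closing peaks were assigned to 397 genes, of which 324 had 1 and 73 more. The genes with 4 or more were Gramd3 and Wwox with 6 each, Pik3r5 with 5, and Pdlim4 and Trps1 with 4. Pik3r5 encodes the p101 regulatory subunit of the phosphoinositide 3-kinase that chemokine receptors activate. All of its 11 listed peaks had a lower mean in D than in A, and its 5 closing peaks lie in the first intron within 18.4 kb (chr11:68435450-68453838), where 6 peaks are listed. The strongest (chr11:68452639-68453838) held 26.6, 25.9 and 31.7 rppm in D, 42.8, 33.4 and 35.0 rppm in C, 44.1, 51.7 and 52.1 rppm in B, and 55.7 and 57.6 rppm in A, with no overlap between populations. Wwox encodes a WW domain oxidoreductase, and 5 of its 31 listed peaks had a higher mean in D than in A, the highest at 2.00. Its 6 closing peaks lie in its last intron in 46.4 kb (chr8:114839528-114885895), among 10 peaks that were all lower in D. The strongest (chr8:114869089-114869908) held 21.6, 15.9 and 17.8 rppm in D, 34.7, 31.0 and 29.0 rppm in C, 48.4, 43.8 and 42.4 rppm in B, and 54.2 and 48.8 rppm in A.

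Trps1, a GATA-type repressor, had 20 listed peaks, of which 8 had a higher mean in D than in A. Its 4 closing peaks were all far from its start. The 3 closest to each other (chr15:49899767-49943183) lie 946 to 989 kb away and were the only peaks listed there, so the assignment to Trps1 rests on distance alone. The deepest held 1.925, 1.31 and 2.12 rppm in D, 4.91, 2.16 and 3.01 rppm in C, 5.46, 6.87 and 6.34 rppm in B, and 7.94 and 10.8 rppm in A. Gramd3, a GRAM domain protein, had 6 closing peaks of 23 listed, among them one at its start site with 25.0, 27.9 and 33.4 rppm in D, 39.4, 34.5 and 40.5 rppm in C, 45.4, 52.1 and 57.0 rppm in B, and 56.6 and 54.2 rppm in A.

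Some closing peaks lie close to each other. With gaps of at most 100 kb, 206 of 495 (41.6%) fell into 81 groups of 2 or more, and 18 groups held at least 3; listed peaks are unevenly spaced, and whether this exceeds their spacing was not tested. The largest, of 9 closing peaks among 26 listed, spans 161 kb on chr11:54002100-54163491 over Slc22a21, Slc22a4, Pdlim4, P4ha2 and 4933405E24Rik, and 23 of the 26 had a lower mean in D. Pdlim4, a PDZ and LIM domain protein that binds actin filaments, held 4 of these 9. Its strongest (chr11:54062604-54063761) held 18.1, 14.0 and 16.5 rppm in D, 30.4, 28.9 and 34.3 rppm in C, 40.6, 36.3 and 40.4 rppm in B, and 40.5 and 40.4 rppm in A. A stretch of 236 kb around Glrp1 and Arl4c, a small GTPase of the ARF family (chr1:88462420-88698490), held 7 of 38, with 33 of 38 lower in D. In 5 groups of 3 (Gbp11, Ntrk2, Prss12, Rab3gap1 and Trps1) and in 30 groups of 2, no other peak is listed between the closing peaks that bound the group.

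**Figure D4:**
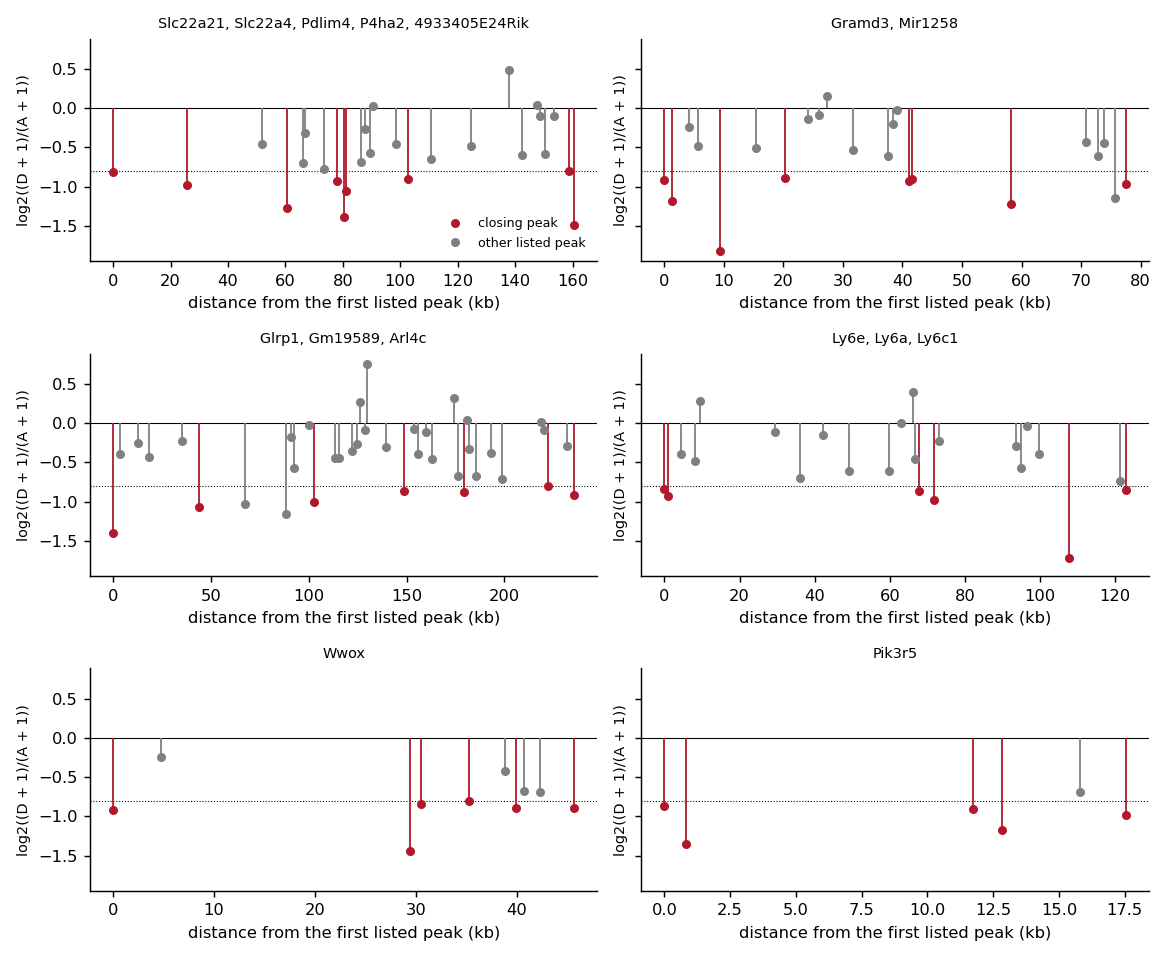
Each listed peak in 6 loci, drawn at its distance (kb) from the first listed peak of the locus and at its log2((D + 1)/(A + 1)); red are closing peaks, grey other listed peaks, and the dotted line is the threshold of -0.8. Most grey peaks also lie below 0, as 23 of all 26 peaks do in the first locus and 20 of 23 in the Ly6 locus, while every peak drawn in the Wwox and Pik3r5 loci does.

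Few closing peaks lay near start sites compared with the table as a whole. Introns held 244 closing peaks (49.3%, against 41.2% of all peaks) and intergenic sequence 210 (42.4% against 32.3%). Of all peaks more than 1 kb from a start, 49.2% lay in introns and 44.1% in intergenic sequence, near the shares of the closing peaks. Those of the closing peaks include peaks within 1 kb, so the sets are not alike. Promoters held 14 (2.83% against 16.0%), and 18 (3.64% against 26.8%) lay within 1 kb of a start. The median distance to the start was 23.4 kb, against 9.59 kb over all peaks, and 56 (11.3% against 5.95%) lay beyond 100 kb. The median width was 653 bases, against 760. Over all peaks more than 1 kb from a start, the median width was 660 bases and the median distance 18.1 kb, and 8.13% lay beyond 100 kb. Of 285 closing peaks that the annotation places in a transcript, 202 were in one of the assigned gene (matched by gene identifier), 81 in one of another gene, and 2 could not be matched, so the assigned gene is the nearest start site and need not be the regulated gene. C minus B was like the rest at the 18 peaks near starts, with a median of -0.29, and was -0.34 at the 56 beyond 100 kb.

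**Figure D5:**
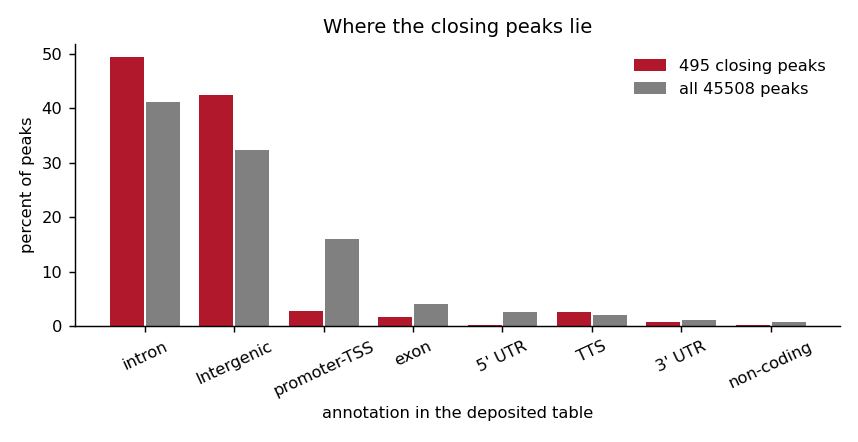
Percent of the 495 closing peaks (red) and of all 45508 peaks (grey) in each annotation class of the deposited table. Introns (49.3% against 41.2%) and intergenic sequence (42.4% against 32.3%) are fuller among closing peaks, and promoters (2.83% against 16.0%) are emptier.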

How the data were processed

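ATAC-seq libraries of 10000 cells each were tagmented for 1 h at 37 °C, per the labels' protocols. The deposited table gives 1 value per peak and library in RPM, called rppm per the file headers. The submitters' processing notes list mm10, Bowtie and MACS2, with no role or version; how reads were filtered and which libraries went into peak calling is not given in the sources used here. At least 99.9978% of values in each library were whole multiples of 1 step within 6e-04 rppm, so whole reads were recovered: 1 step was a share of 2597176 reads in the shallowest library and of 36859230 in the deepest. Listed peaks held 92.5% to 94.7% of them, and 10 rppm is 26 to 369 reads. Reads carry no molecular identifiers.

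Population means were compared on log2(rppm + 1). C against B was tested with limma 3.58.1 in R 4.3.3 (trend, 1 mean per population, 11 libraries, two-sided, Benjamini-Hochberg over 45508 peaks, threshold 0.05), and the script was tested on simulated data. Alternatives were the mouse block, edgeR 4.0.16 and DESeq2 1.42.0 on recovered reads, other pseudocounts, a filter, median-of-ratios scaling and left-out libraries. Deviations of 15 library pairs from 1 mouse correlated at 0.18 to 0.56, and of 30 pairs from different mice at -0.43 to 0.20. The labels give the mouse, so the numbers pair the samples.

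The closing peaks, the gene lists and the tests were chosen with earlier results of these data known. Named peaks were the 10 lowest D to A ratios (1 per gene with a proper symbol), C against B calls, genes with 4 or more closing peaks, up to 3 per list, and those at the threshold; others were chosen after their values were seen. RefSeq gene identifiers matched for all 495. Motifs in the middle of peaks were not analysed here.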

Additional observations from a re-analysis of the deposited data

How the results depend on the processing

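The number of closing peaks depends on the rule. It was 98 with a pseudocount of 5, 244 with at least 10 rppm in A, and 825 without mouse 3 (451 of them among the 495). It was 701 with a pseudocount of 0.25, 608 with at least 2 rppm in A and 476 with median-of-ratios scaling, and ran from 539 to 703 with 1 library of A or D left out. In D of mouse 1, the shallowest library, 214 of the 495 closing peaks rested on fewer than 10 reads. So did 6119 of all 45508 peaks, and 1706 of the 34178 with at least 5 rppm in A. Without that library the rule found 561, of which 383 were shared. For C against B, 11 closing peaks were called lower with the mouse as a replicate block, 8 by edgeR and 9 by DESeq2, against 0 without the block. With 1 library left out the count ran from 0 to 3, the 3 being Lipa, Oxsm and Cyb5b without D of mouse 1; the cause was not tested. It was 0 under the other pseudocounts, the filter, the scaling, B and C alone, and without mouse 3. Closing peaks called higher were 0 under every alternative. In the whole table, 71 peaks were called higher with the block, 58 by edgeR and 75 by DESeq2. The median difference of C minus B was -0.18 with a pseudocount of 5, and ran from -0.29 to -0.22 with 1 library left out. Of the named peaks' values under the alternatives, 389 differences of C minus B kept direction and side of the threshold and 25 passed it; 510 D to A ratios moved by less than the spread and 75 by more. None reversed.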

Other observations

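Some loci differed between mice as much as between neighbouring populations. At a closing peak in an intron of Ntrk2, the receptor of brain-derived neurotrophic factor (chr13:59025354-59026129), accessibility was 8.09, 3.20 and 5.996 rppm in D of mouse 1, 2 and 3, 15.9, 6.99 and 11.2 rppm in C, 16.3, 13.0 and 13.4 rppm in B, and 15.9 and 15.2 rppm in A of mouse 1 and 3. Mouse 2 had the lowest value in all 3 populations it entered. A peak of Glrp1 (chr1:88506292-88507031) had the same order, with 13.1, 4.95 and 8.44 rppm in D, 21.2, 11.5 and 14.5 rppm in C, 21.6, 14.1 and 15.0 rppm in B, and 20.0 and 19.2 rppm in A. Both were chosen after their values were seen.

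Closing peaks were found on every numbered chromosome and on X. Chromosome 11 held 49 and chromosome 15 held 33, which is 1.34% and 1.49% of their listed peaks, and chromosome 4 had the lowest share of the numbered chromosomes, at 0.707% (19 peaks).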
